A study of Mus musculus with 30 samples.

Results

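Mouse fibroblasts treated with diphenyleneiodonium were compared directly with fibroblasts treated with dihydrorotenone. The comparison uses 6 of the 30 libraries of the series, the 3 whose treatment label is Diphenyleneiodonium Cl and the 3 whose label is Dihydrorotenone, and every gene with at least 1 TPM in at least 3 of those 6 libraries, which left 12672 of the 29861 genes in the deposited table. TPM (transcripts per 1000000 transcripts) corrects for transcript length and for the total of the library, so levels can be set beside each other between genes. All libraries came from CCG-HTA-1, a single line of primary fibroblasts grown from the tails of UMHet3 mice, which are the offspring of a cross of several inbred strains. Cells at passage 4 were kept in high-glucose medium with no pyruvate and were collected 48 hours after a compound or its solvent DMSO was added. The 6 DMSO libraries are given as the level in solvent, and the doses are not given in the sources used here. The donor mice were 5 to 8 weeks old by the labels, except that the label of dihydrorotenone replicate 1 gives 8 to 11 weeks. The number of donor animals is not given, so the replicates are taken as cultures or libraries of 1 line, and p-values measure only the spread between them. Per its title, the screen behind these libraries concerned stress resistance that does or does not depend on NRF2.

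Dihydrorotenone is a reduced form of rotenone, and compounds of this family block complex I of the respiratory chain where it passes electrons to ubiquinone. Diphenyleneiodonium reacts with enzymes that carry a flavin cofactor, among them the NADPH oxidases, the nitric oxide synthases, cytochrome P450 reductase, xanthine oxidoreductase and complex I itself, whose flavin accepts electrons from NADH. Both compounds therefore reach complex I, at different sites, and diphenyleneiodonium reaches other flavoenzymes as well. Fibroblasts in culture make extracellular matrix, can take on a contractile myofibroblast state, and respond to interferon and to oxidant stress with well known gene sets.

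The test (limma on log2(TPM + 1), Benjamini-Hochberg adjustment over the 12672 genes) called 523 genes at an adjusted p under 0.05, or 4.13% of those tested. Of these, 444 were higher with diphenyleneiodonium (3.5%) and 79 were lower (0.623%). Differences were mostly small: 106 called genes were at least 1.5-fold higher and 13 at least 1.5-fold lower, and 19 were at least 2-fold higher against 1 that was at least 2-fold lower. The median difference over all genes tested was 0.05 on the log2 scale, and 65.5% of them lay above 0. The median was -0.003 with median-ratio scaling and -0.004 with quantile normalization, so its sign depended on the scaling. The called genes were 84.9% higher under the deposited scaling, 65.6% with median-ratio scaling (259 higher, 136 lower) and 63.6% with quantile normalization (322 higher, 184 lower). Against DMSO, diphenyleneiodonium gave 1890 genes higher (14.9%) and 1536 lower (12.1%), and dihydrorotenone gave 679 higher (5.36%) and 1264 lower (9.97%). These comparisons share the same 6 DMSO libraries. All 3 libraries of diphenyleneiodonium exceeded all 3 of dihydrorotenone for 2447 genes (19.3%), and the reverse held for 833 genes (6.57%). With 3 libraries against 3, an exact two-sided permutation test of a single gene cannot go below p = 0.10, so single genes were tested only in the fit across all genes.

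Dihydrorotenone replicate 1 stood apart from the other 5 libraries. On the first principal component of the 6 libraries, which held 33.5% of the variance, the diphenyleneiodonium libraries were at 10.5, 8.6 and 13.4, dihydrorotenone replicates 2 and 3 at -5.6 and -7.8, and replicate 1 at -19.2. Without it 239 genes were called. The counts were 317, 263 and 269 without diphenyleneiodonium replicates 1, 2 and 3, and 360 and 328 without dihydrorotenone replicates 2 and 3. The library numbers in the labels run without a gap through the dihydrorotenone and then the diphenyleneiodonium libraries, so the group and the order of the libraries cannot be told apart. The threshold on low values kept Ncf4, at 1.39, 1.08 and 0.894 TPM with diphenyleneiodonium and 0.649, 1.5 and 0.861 TPM with dihydrorotenone, and dropped Gsta2, at 0.694, 1.52 and 0.995 TPM against 0.754, 1.33 and 0.263 TPM. Only 42 tested genes and 7 called genes were under 1 TPM in all 3 libraries of a compound, so that they passed the threshold through the other compound alone.

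**Figure D1:**
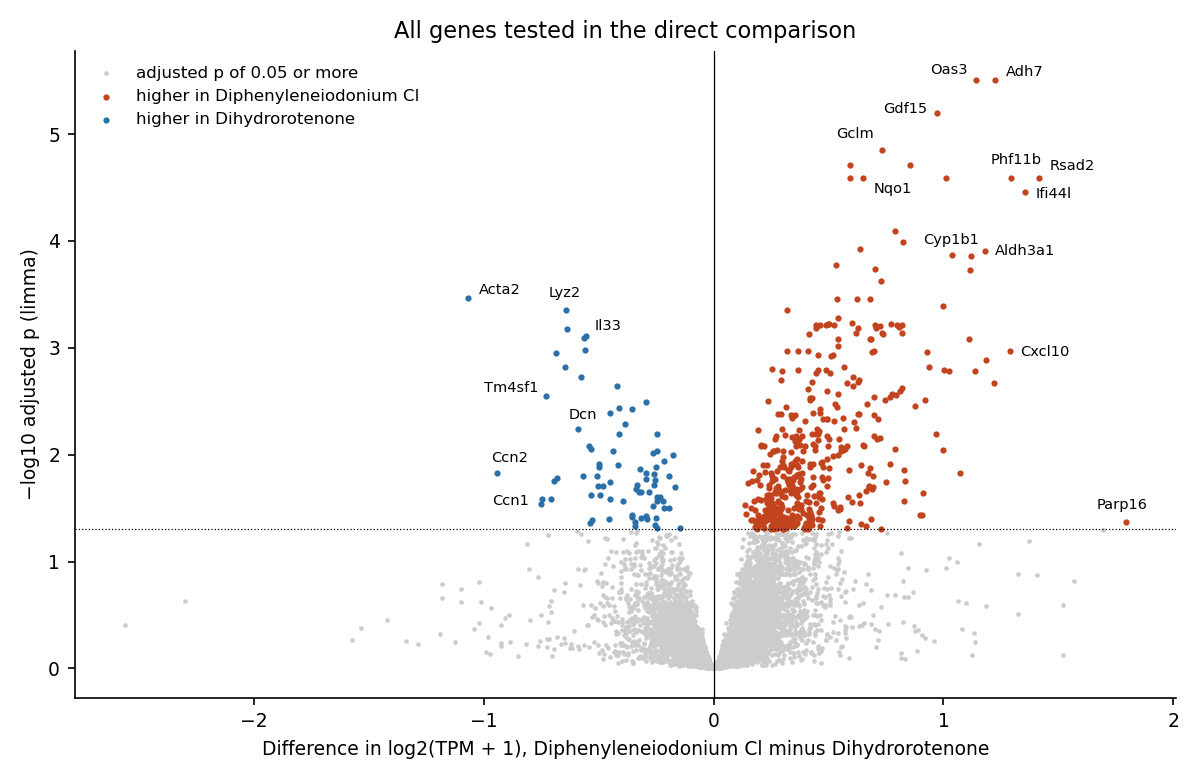
Each point is a gene, with the difference in log2(TPM + 1) between diphenyleneiodonium and dihydrorotenone on the horizontal axis and −log10 of the limma adjusted p on the vertical axis. The 444 called genes to the right outnumber the 79 to the left, and Acta2 at -1.07 is the only called gene beyond a 2-fold difference on the left.

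Interferon-stimulated genes led the difference. Interferons made by a cell act through STAT and IRF factors to switch on antiviral effectors, and the 42 tested type I interferon-stimulated genes included 38 that were higher with diphenyleneiodonium and none that was lower. Their median difference was 0.69, against 0.05 over all genes. Dihydrorotenone itself was above DMSO for these genes, with a median difference of 0.43 and 25 members called higher, and diphenyleneiodonium was further above it, with a median of 1.12 and 40 members called higher. Averaged over the list in each library, log2(TPM + 1) was 5.67 to 5.80 with diphenyleneiodonium, 4.91 to 5.13 with dihydrorotenone and 4.14 to 4.68 in DMSO, so the 3 groups did not overlap. In bulk RNA, a change in the number of cells that express a gene and a change in RNA per cell cannot be told apart.

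The promoters of 3 of the leading interferon genes are shown because the letters of the interferon-stimulated response element, the sequence that STAT and IRF factors bind, lie in them. They are RefSeq windows of GRCm38.p6, from 250 bases before to 50 bases after the start of the gene, written 5′ to 3′ along the gene's own strand, and capitals mark the letters GAAANNGAA or their reverse complement. Rsad2 is at chr12:26456403-26456702 on the minus strand, Ifit3 at chr19:34583279-34583578 on the plus strand and Cxcl10 at chr5:92348840-92349139 on the minus strand.
Rsad2: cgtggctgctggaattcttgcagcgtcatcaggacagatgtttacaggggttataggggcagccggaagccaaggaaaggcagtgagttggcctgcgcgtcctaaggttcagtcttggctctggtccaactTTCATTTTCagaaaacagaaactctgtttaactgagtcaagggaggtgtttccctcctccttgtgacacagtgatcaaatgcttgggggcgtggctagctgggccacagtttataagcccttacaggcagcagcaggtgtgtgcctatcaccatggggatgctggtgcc
Ifit3: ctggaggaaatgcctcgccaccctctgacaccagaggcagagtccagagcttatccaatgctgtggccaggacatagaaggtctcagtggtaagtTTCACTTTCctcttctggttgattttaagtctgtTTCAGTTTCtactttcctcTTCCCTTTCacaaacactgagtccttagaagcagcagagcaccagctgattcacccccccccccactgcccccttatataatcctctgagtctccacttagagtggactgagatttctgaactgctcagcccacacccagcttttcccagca
Cxcl10: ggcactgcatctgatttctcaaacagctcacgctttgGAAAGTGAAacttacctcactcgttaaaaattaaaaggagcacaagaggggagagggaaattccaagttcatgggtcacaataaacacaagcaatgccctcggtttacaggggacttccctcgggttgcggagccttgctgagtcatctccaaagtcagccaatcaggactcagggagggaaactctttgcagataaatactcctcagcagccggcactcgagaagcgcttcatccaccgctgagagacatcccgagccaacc
The match in Rsad2 begins at position -119 from the start site, the 1 in Cxcl10 at -213, and the first 2 of 3 in Ifit3 at -155 and -121. Among tested members of the list with a window, 18 of 29 genes held these letters on either strand of any of their windows (62.1%), against 2638 of the 27025 genes in the whole promoter table (9.76%). The share was 8.66% of the tested genes. It was 22.2% of the called higher genes (75 of 338 with a window) and 11.1% of the called lower genes (7 of 63). These are matches of letters, with no measurement of binding.

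Rsad2, whose product viperin makes an antiviral nucleotide, lies at chr12:26442746-26456452 and had the largest difference among the named genes. Its levels were 8.61, 10.4 and 9.56 TPM with diphenyleneiodonium, 3.27, 3.47 and 2.17 TPM with dihydrorotenone and 0.572 to 1.99 TPM in DMSO. The 3 groups were fully separated, with diphenyleneiodonium highest and DMSO lowest, and the direct difference was 1.42 ± 0.17 (SE, adjusted p = 2.58e-05). Ifi44l, an interferon-induced gene of unsettled function, was at 11.7, 11.9 and 9.94 TPM against 3.46, 4.00 and 3.81 TPM, a difference of 1.35 ± 0.17 (adjusted p = 3.45e-05). Oas2, which makes 2-5A, the activator of RNase L, was at 6.68, 9.80 and 8.12 TPM against 2.82, 3.54 and 3.24 TPM, a difference of 1.12 (adjusted p = 0.000137). Its relative Oas3 was at 2.95, 3.26 and 4.09 TPM against 1.06, 1.14 and 0.801 TPM, with a difference of 1.14 and an adjusted p of 3.12e-06. Oas1a and Oas1g were also higher, by 0.80 and 0.94, but 68.8% and 55.1% of their 31-base words also occur in other genes, so the split of reads among the Oas1 copies is uncertain. Mx1, a dynamin-like antiviral GTPase, was higher by 1.12 (8.16, 10.4 and 7.90 TPM against 4.77, 2.96 and 2.99 TPM). In none of these genes did a diphenyleneiodonium library fall within the range of the dihydrorotenone libraries. The rule for named genes required this of Rsad2, Ifi44l, Oas2 and Mx1.

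The factors that carry the interferon signal were higher too. Stat2 was higher by 0.70 and Irf9 by 0.36. Irf7, which amplifies the response by driving interferon genes, was at 215, 273 and 255 TPM against 141, 123 and 108 TPM, a difference of 1.0 (adjusted p = 0.000406), while its DMSO levels were 46.4 to 72.0 TPM. Isg15, a ubiquitin-like modifier, was higher by 0.69, and Usp18, the protease that removes it and a brake on the receptor, was higher by 0.67. The RNA sensors Ifih1, Ddx58 and Dhx58 were higher by 0.68, 0.52 and 0.69. Bst2 (tetherin), which holds budding virus on the membrane, stood at 867, 935 and 879 TPM against 605, 520 and 489 TPM, a difference of 0.74. Of the 4 list members that were not called, Ifitm3 (0.09) and Ifi27 (-0.08) were close to 0, and Rtp4 (0.76) and Ifi27l2a (0.69) had differences as large as those of called members with wider spread between replicates.

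Ifit3 and Ifit3b, neighbours on chromosome 19 whose products bind foreign RNA as part of the IFIT complex, were at 571, 629 and 575 TPM and at 128, 151 and 134 TPM with diphenyleneiodonium. With dihydrorotenone they were at 320, 258 and 233 TPM and at 71.3, 57.4 and 52.6 TPM, which gives differences of 1.14 and 1.18. They share 61.8% and 55.3% of their 31-base words with other genes and cannot be taken as independent. Phf11b (1.29; 62.9% shared) and Tgtp1 (1.22; 84.4% shared, and not called with a pseudocount of 0.1) carry the same caution. Among genes outside the Ifit pair, Ifit1 (0.66) and Ifit2 (0.82) were also higher.

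Interferon-inducible GTPases and antigen presentation genes formed the second interferon list, with 16 of 25 tested members higher, none lower and a median of 0.47. These GTPases attack the vacuoles in which microbes live. Gbp3 was at 85.7, 85.9 and 84.5 TPM against 54.4, 47.3 and 43.5 TPM, a difference of 0.81 (adjusted p = 0.00254), and Irgm1 was higher by 0.77. The major histocompatibility genes H2-K1 and H2-D1, which present peptides to T cells, were higher by 0.34 and 0.33, and the immunoproteasome subunits Psmb8 and Psmb9, which cut those peptides, by 0.48 and 0.42. Nlrc5, which switches on class I genes, was higher by 0.91, at 7.71, 5.76 and 6.43 TPM against 3.36, 2.54 and 3.28 TPM.

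Of 31 chemokines and inflammatory genes, 3 were higher and 1 was lower, against 3.5% and 0.623% of all genes tested. The list median was -0.00. The 3 were Cxcl9, Cxcl10 and Cxcl11, the interferon-induced ligands of the T-cell receptor CXCR3. Cxcl10 was at 55.3, 64.1 and 49.4 TPM with diphenyleneiodonium, at 26.6, 24.3 and 17.2 TPM with dihydrorotenone and at 6.28 to 17.7 TPM in DMSO, a direct difference of 1.29 ± 0.22 (adjusted p = 0.00108). Cxcl9 was higher by 1.0 and Cxcl11 by 1.11, although the annotation used here lists Cxcl11 as a polymorphic pseudogene and 42.2% of its 31-base words are shared. The lower gene was Il33, an alarmin released by damaged stromal cells, at 21.1, 20.3 and 19.8 TPM against 30.5, 31.2 and 30.0 TPM and 34.0 to 45.3 TPM in DMSO. Its difference was -0.56 (adjusted p = 0.000812). The interferon count was 25 of 42 without dihydrorotenone replicate 3, and 26 to 34 without any other single library. The GTPase count was 7 without dihydrorotenone replicate 3, 9 without diphenyleneiodonium replicate 2, 10 without dihydrorotenone replicate 2 or diphenyleneiodonium replicate 3, and 10 of 25 with median-ratio scaling.

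**Figure D2:**
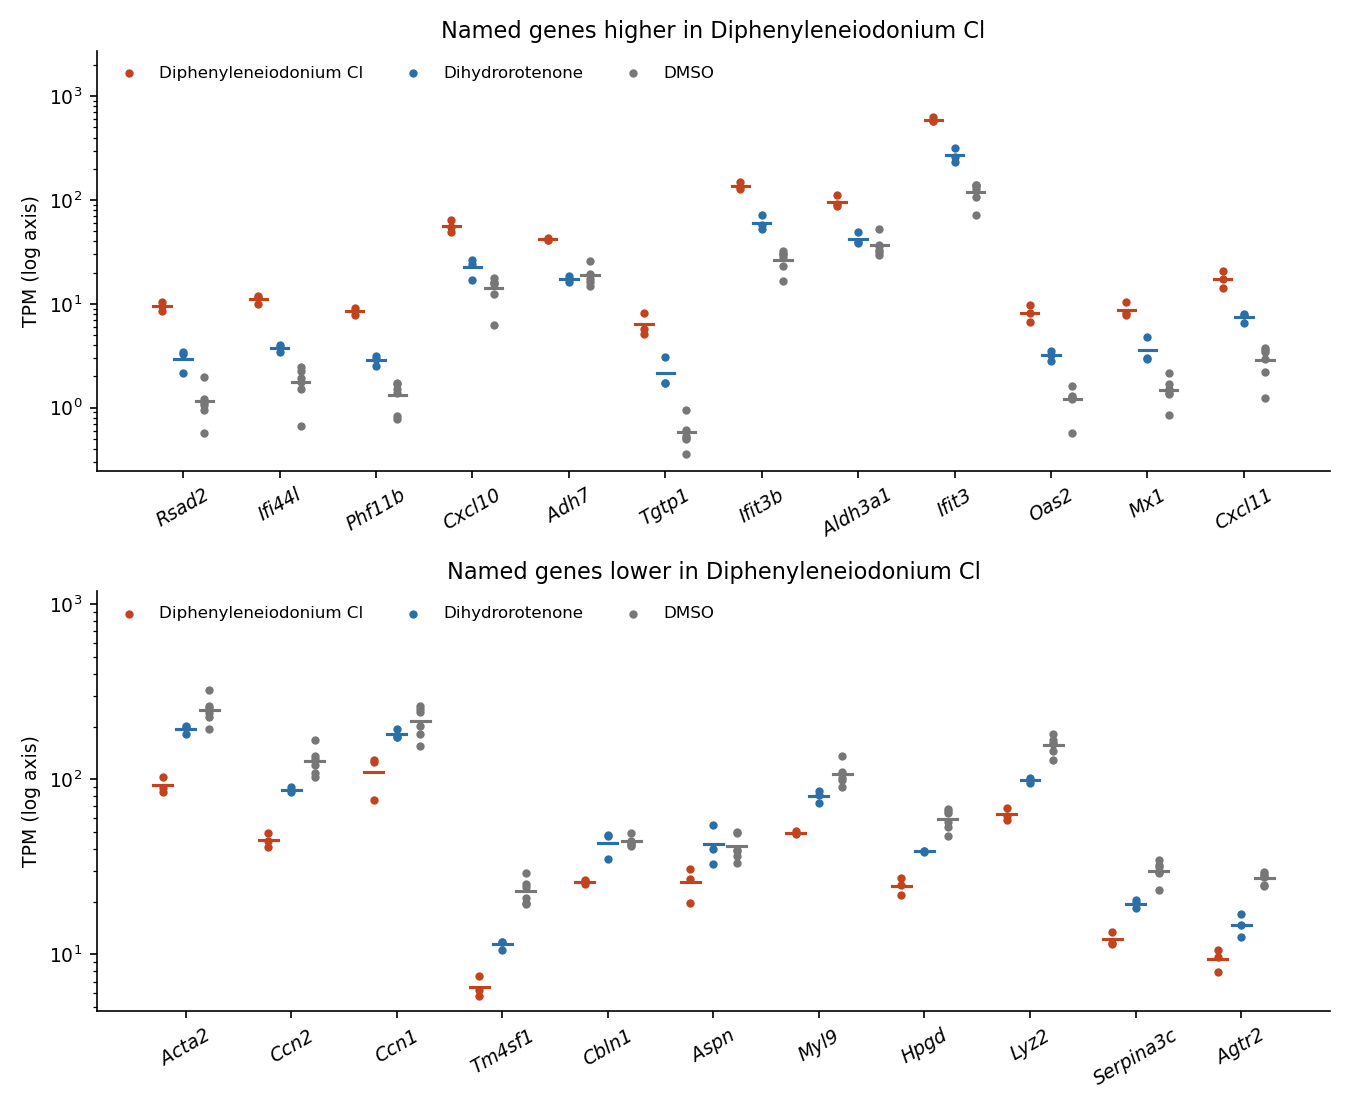
TPM on a log axis for named genes higher (top) and named genes lower (bottom) with diphenyleneiodonium, with 1 point per library for both compounds and DMSO and a bar at the group mean. Named genes were chosen so that the 3 libraries of a compound lie on 1 side of those of the other. For Adh7 the dihydrorotenone libraries lie among those of DMSO.

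Genes of the aryl hydrocarbon receptor pathway separated the compounds by a similar median. The receptor (Ahr) is a cytosolic sensor of planar aromatic molecules that enters the nucleus with ARNT and switches on drug-metabolising enzymes and its own repressor. Of 8 tested members, 5 were higher with diphenyleneiodonium and none was lower, and the median of the list was 0.67. The mean log2(TPM + 1) of the list was 5.6 to 5.65 with diphenyleneiodonium, 5.05 to 5.08 with dihydrorotenone and 5.00 to 5.39 in DMSO. Diphenyleneiodonium therefore lay above all 6 solvent libraries, and dihydrorotenone lay above the lowest of them (replicate 6) and below the other 5. Against DMSO, 2 members were called lower with dihydrorotenone, Ahr and Ugt1a6a (-0.16, adjusted p = 0.0428). The count was 5 without any single library.

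Promoters of the P450 gene and of the repressor are shown for the letters GCGTG, the core that the receptor and ARNT bind, which are in capitals on either strand. Cyp1b1 is at chr17:79715012-79715311 and Ahrr at chr13:74292282-74292581, both on the minus strand.
Cyp1b1: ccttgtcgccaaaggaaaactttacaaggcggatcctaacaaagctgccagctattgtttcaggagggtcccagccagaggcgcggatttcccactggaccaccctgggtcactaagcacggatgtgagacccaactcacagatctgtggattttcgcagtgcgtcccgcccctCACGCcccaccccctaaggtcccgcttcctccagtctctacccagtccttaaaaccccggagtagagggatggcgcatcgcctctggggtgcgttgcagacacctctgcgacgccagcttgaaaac
Ahrr: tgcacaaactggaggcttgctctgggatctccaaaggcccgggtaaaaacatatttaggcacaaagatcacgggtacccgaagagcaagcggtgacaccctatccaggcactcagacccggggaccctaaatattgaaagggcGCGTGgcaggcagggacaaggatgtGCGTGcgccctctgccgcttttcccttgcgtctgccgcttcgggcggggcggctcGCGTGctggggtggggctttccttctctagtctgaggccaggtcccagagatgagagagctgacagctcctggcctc
The match in Cyp1b1 begins at -76 from the start site and the first 2 of 3 in Ahrr at -107 and -82. The core is short and common: 35.2% of all genes with a window, 56.4% of the tested genes and 49.4% of the called higher genes held it, as did 4 of the 6 list members with a window (66.7%), and the Nqo1 window did not.

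Cyp1b1, a P450 that oxidises polycyclic hydrocarbons and estrogens, stood at 154, 146 and 141 TPM with diphenyleneiodonium, at 68.5, 69.6 and 75.0 TPM with dihydrorotenone and at 64.4 to 109 TPM in DMSO. The difference was 1.04 ± 0.15 (adjusted p = 0.000135), and all 3 diphenyleneiodonium libraries were above the solvent range. Ahrr, the repressor that limits the receptor, was at 13.4, 13.3 and 12.4 TPM against 6.55, 6.62 and 7.73 TPM, a difference of 0.82 ± 0.13 (adjusted p = 0.000607). Tiparp, an ADP-ribosyltransferase that also limits the receptor, was at 27.2, 25.2 and 28.6 TPM against 15.2, 16.5 and 17.6 TPM, a difference of 0.68 (adjusted p = 0.000821). The gene of the receptor itself was not called between the compounds. Ahr was at 7.43, 7.16 and 6.85 TPM with diphenyleneiodonium and 7.66, 9.01 and 7.76 TPM with dihydrorotenone, and both compounds were called lower than DMSO (10.9 to 14.7 TPM) while the direct difference was -0.16 (95% interval -0.36 to 0.04, adjusted p = 0.413). Cyp1a1 and Cyp1a2, the other classical targets, stayed under 1 TPM in all 6 libraries and were not tested, with highest values of 0.124 and 0.0287 TPM.

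Aldh3a1, an aldehyde dehydrogenase that clears lipid peroxidation products, was at 86.8, 90.9 and 112 TPM against 49.0, 38.3 and 39.0 TPM, a difference of 1.18 ± 0.16 (adjusted p = 0.000125). The DMSO libraries were at 29.8 to 36.8 TPM except replicate 4 at 52.2 TPM, so all 3 dihydrorotenone libraries lay above 5 of the 6, and the difference of dihydrorotenone from DMSO was 0.21 (adjusted p = 0.344). Adh7, an alcohol dehydrogenase active on retinol, at chr3:138217760-138233382, was on no list. Its levels were 43.2, 41.2 and 41.1 TPM with diphenyleneiodonium, 18.6, 16.1 and 17.3 TPM with dihydrorotenone and 14.8 to 25.9 TPM in DMSO. The difference was 1.23 ± 0.12 (adjusted p = 3.12e-06), which with Oas3 was the smallest adjusted p in the comparison. Diphenyleneiodonium was above DMSO by 1.13 and dihydrorotenone differed from it by -0.10 (adjusted p = 0.597).

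NRF2 targets were the largest group after the interferon genes. NRF2 is held down by KEAP1 until oxidants or electrophiles modify that protein, and it then raises the enzymes that make glutathione, reduce quinones and supply NADPH. Of 33 tested targets, 18 were higher with diphenyleneiodonium, none was lower and the median was 0.28. Nqo1 is counted both here and among the receptor genes. The list mean was 7.02 to 7.03 in the diphenyleneiodonium libraries and 6.68 to 6.74 in the dihydrorotenone libraries, while DMSO spanned 6.68 to 6.98. Against DMSO, 14 members were higher and none lower with diphenyleneiodonium, and 1 was higher and 9 lower with dihydrorotenone, so the direct difference had contributions on both sides of solvent. The count was 10 without dihydrorotenone replicate 1 and 12 to 15 without any other single library.

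The promoter of Gclm, at chr3:122245307-122245606 on the plus strand, is shown for the letters TGACNNNGC, the core of the antioxidant response element bound by NRF2, in capitals as their reverse complement.
Gclm: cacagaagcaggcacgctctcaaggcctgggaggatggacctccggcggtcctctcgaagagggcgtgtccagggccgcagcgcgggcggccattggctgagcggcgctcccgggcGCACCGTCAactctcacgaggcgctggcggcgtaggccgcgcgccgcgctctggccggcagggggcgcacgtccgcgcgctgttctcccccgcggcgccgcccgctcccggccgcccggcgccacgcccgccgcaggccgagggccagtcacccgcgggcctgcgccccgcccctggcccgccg
The match begins at -134 from the start site. Of the list members with a window, 11 of 28 held these letters (39.3%), and the windows of Nqo1 and Slc7a11 did not. The share was 14% of all genes with a window, 16.7% of the tested genes and 17.5% of the called higher genes.

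The largest differences in the list were those of Gclm (0.73) and Slc7a11 (0.70), which both serve glutathione synthesis, followed by Nqo1 (0.65) and Gsta4 (0.64). Gclm, the modifier subunit of glutamate-cysteine ligase, was at 148, 157 and 138 TPM with diphenyleneiodonium, 80.6, 90.5 and 94.2 TPM with dihydrorotenone and 92.3 to 122 TPM in DMSO. The direct difference was 0.73 ± 0.08 (adjusted p = 1.41e-05), with diphenyleneiodonium above solvent by 0.42 (adjusted p = 7.39e-05) and dihydrorotenone below it by 0.31 (-0.31, adjusted p = 0.0042). Slc7a11, the cystine importer, was at 24.3, 19.5 and 21.8 TPM against 12.2, 13 and 13.7 TPM, a difference of 0.70 ± 0.12 (adjusted p = 0.000658). For this gene the difference from solvent was called only on the dihydrorotenone side (-0.52, adjusted p = 0.000924), and diphenyleneiodonium differed from DMSO by 0.19 (adjusted p = 0.171). Gclc, the catalytic subunit of the ligase, was higher by 0.49 and Gsr, the flavoenzyme that regenerates glutathione, by 0.50.

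Among the detoxifying enzymes, Nqo1, a flavoprotein that reduces quinones, was at 150, 142 and 145 TPM against 97.2, 90.7 and 89.6 TPM, a difference of 0.65 ± 0.08 (adjusted p = 2.58e-05). Gsta4, a glutathione transferase for lipid aldehydes, was higher by 0.64, Ephx1 by 0.34 and Gstm1 by 0.24 (28.8% of its 31-base words are shared). Hmox1, which degrades heme, was at 593, 566 and 546 TPM against 370, 443 and 432 TPM, a difference of 0.46 (adjusted p = 0.00634). For Hmox1 it was again dihydrorotenone that departed from DMSO (-0.32, adjusted p = 0.00923) and not diphenyleneiodonium (0.13, adjusted p = 0.257). Of the enzymes that supply NADPH, Pgd and Taldo1 were higher by 0.25 and 0.41, whereas G6pdx (-0.01) and Me1 (0.10) were not called. Txnrd1 (0.22, adjusted p = 0.177) and Prdx1 (0.28, adjusted p = 0.11), both classical targets, were also not called.

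**Figure D3:**
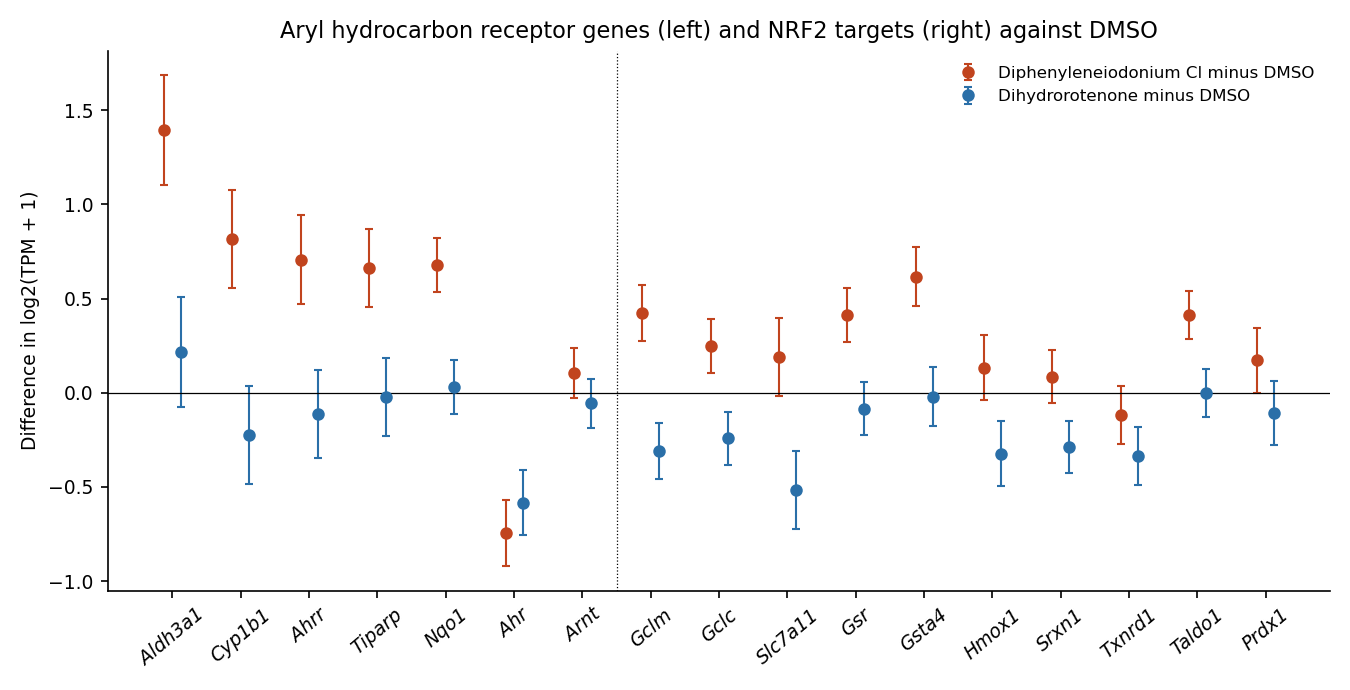
Difference in log2(TPM + 1) from DMSO with its 95% interval for genes of the aryl hydrocarbon receptor pathway (left of the dotted line) and NRF2 targets (right), in diphenyleneiodonium and dihydrorotenone, both against the same 6 DMSO libraries. The receptor targets are above 0 with diphenyleneiodonium and near 0 with dihydrorotenone, while Gclm and Gclc lie above 0 with the first compound and below 0 with the second.

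The NADPH oxidases and nitric oxide synthases, flavoenzymes that diphenyleneiodonium inhibits, showed no difference in RNA that passed the test. Of 18 NADPH oxidase and nitric oxide synthase genes, 9 passed the filter and none was called by limma at an adjusted p under 0.05, with 1 at an unadjusted p under 0.05. Their median was 0.06. That 1 was Nos2, the inducible nitric oxide synthase, at 90.8, 85.2 and 111 TPM with diphenyleneiodonium and 58.5, 62.6 and 58.0 TPM with dihydrorotenone. The groups did not overlap, and the difference was 0.66 ± 0.26 (adjusted p = 0.163). Nox4, the oxidase most often described in fibroblasts, was at 7.70, 8.42 and 7.14 TPM against 7.58, 8.15 and 8.07 TPM (difference -0.03, 95% interval -0.22 to 0.16). Cybb, which encodes the phagocyte oxidase NOX2, was at 54.6, 52.5 and 53 TPM against 44.8, 48.2 and 45.8 TPM, with a difference of 0.20 (adjusted p = 0.484), and its partner Cyba differed by 0.06. Nox1, Nox3, Duox1, Duox2, Nos1 and Nos3 did not reach the filter.

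Of 75 other flavoenzymes tested, 7 were higher, none was lower and the median of 0.05 equalled that of all genes, of which 3.5% were called higher. Nqo1, a flavoprotein described above, was not on this list. Xdh (xanthine oxidoreductase), which makes uric acid and can make superoxide, was at 229, 239 and 244 TPM against 160, 174 and 168 TPM, a difference of 0.50 (adjusted p = 0.000599). Gsr (0.50) and Aox1 (0.31), an aldehyde oxidase, are also on the NRF2 list. Smox, which oxidises spermine, was higher by 0.47, Ero1l, which forms disulfide bonds in the endoplasmic reticulum, by 0.29, Steap3, an iron reductase, by 0.22 and Acadl, of fatty acid oxidation, by 0.20. Por, which encodes cytochrome P450 reductase, differed by 0.10 (adjusted p = 0.489). None of the 4 tested genes of riboflavin uptake and flavin synthesis was called by limma, and none had an unadjusted p under 0.05.

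Genes for the shared target, complex I, showed no difference that passed the test. None of 36 nuclear subunit genes was called by limma (7 had an unadjusted p under 0.05, all lower with diphenyleneiodonium), their median was -0.09 and the widest differences were -0.28 for Ndufc1 and 0.10 for Ndufab1. None of 18 assembly factors was called (3 at an unadjusted p under 0.05). Of 38 genes for complexes II to V, Cox6c alone was called, lower by 0.25 (-0.25). Unadjusted limma p was under 0.05 for 10 of the 38, all lower with diphenyleneiodonium. Only 8 of these 38 genes and 8 of the 36 complex I subunit genes lay above 0, against 65.5% of all genes tested. Of the 13 protein genes of mitochondrial DNA, 1 was called, mt-Cytb of complex III, at 3833, 3644 and 3713 TPM with diphenyleneiodonium and 4629, 4186 and 4548 TPM with dihydrorotenone (difference -0.26, adjusted p = 0.0453). The list median was -0.18 (-0.10 without dihydrorotenone replicate 1). Against DMSO, 10 of the 13 mitochondrial genes were higher with dihydrorotenone (median 0.32) and 3 with diphenyleneiodonium (median 0.16). The largest direct difference, -0.48 for mt-Nd3 (432, 688 and 816 TPM against 1084, 787 and 769 TPM), was within the spread of its replicates (adjusted p = 0.324).

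Of 24 tested genes of glucose uptake and glycolysis, 8 were higher with diphenyleneiodonium, 16 were not called, none was lower and the median was 0.24. Slc2a1 (GLUT1), the basal glucose transporter, was at 151, 157 and 164 TPM against 97.9, 117 and 118 TPM, a difference of 0.50 (adjusted p = 0.00711). Hk2, the hexokinase that binds mitochondria, was at 28.1, 25.7 and 31.4 TPM against 16.5, 18.7 and 21.5 TPM, a difference of 0.56 (adjusted p = 0.00907). The other called members were Eno2 (0.44), Gpi1 (0.33), Pfkl (0.31), Pgam1 (0.28), Aldoa (0.25) and Hk1 (0.24). For Pgam1, 37.1% of its 31-base words are shared. Ldha (0.15) and Gapdh (0.14) were not called. Dihydrorotenone replicate 1 was the lowest of the 6 libraries for Slc2a1 and Hk2, and the list mean was 6.04 in it, 6.26 and 6.28 in the other dihydrorotenone libraries and 6.34 to 6.44 with diphenyleneiodonium. Without that library the list held 0 called genes by limma and a median of 0.17. The count was 5, 4 and 1 without diphenyleneiodonium replicates 1, 2 and 3, and 4 with median-ratio scaling.

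Hypoxia-responsive HIF targets outside glycolysis gave 3 of 20 higher and none lower, with a median of 0.24 (0.13 without dihydrorotenone replicate 1). Among all genes tested, 3.5% were called higher and the median was 0.05. Vegfa, the growth factor for blood vessels, was at 121, 107 and 114 TPM against 63.0, 80.5 and 86.0 TPM, a difference of 0.58 (adjusted p = 0.00213). P4ha1, which hydroxylates collagen, was higher by 0.24, and Car12, a carbonic anhydrase, by 0.39.

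**Figure D4:**
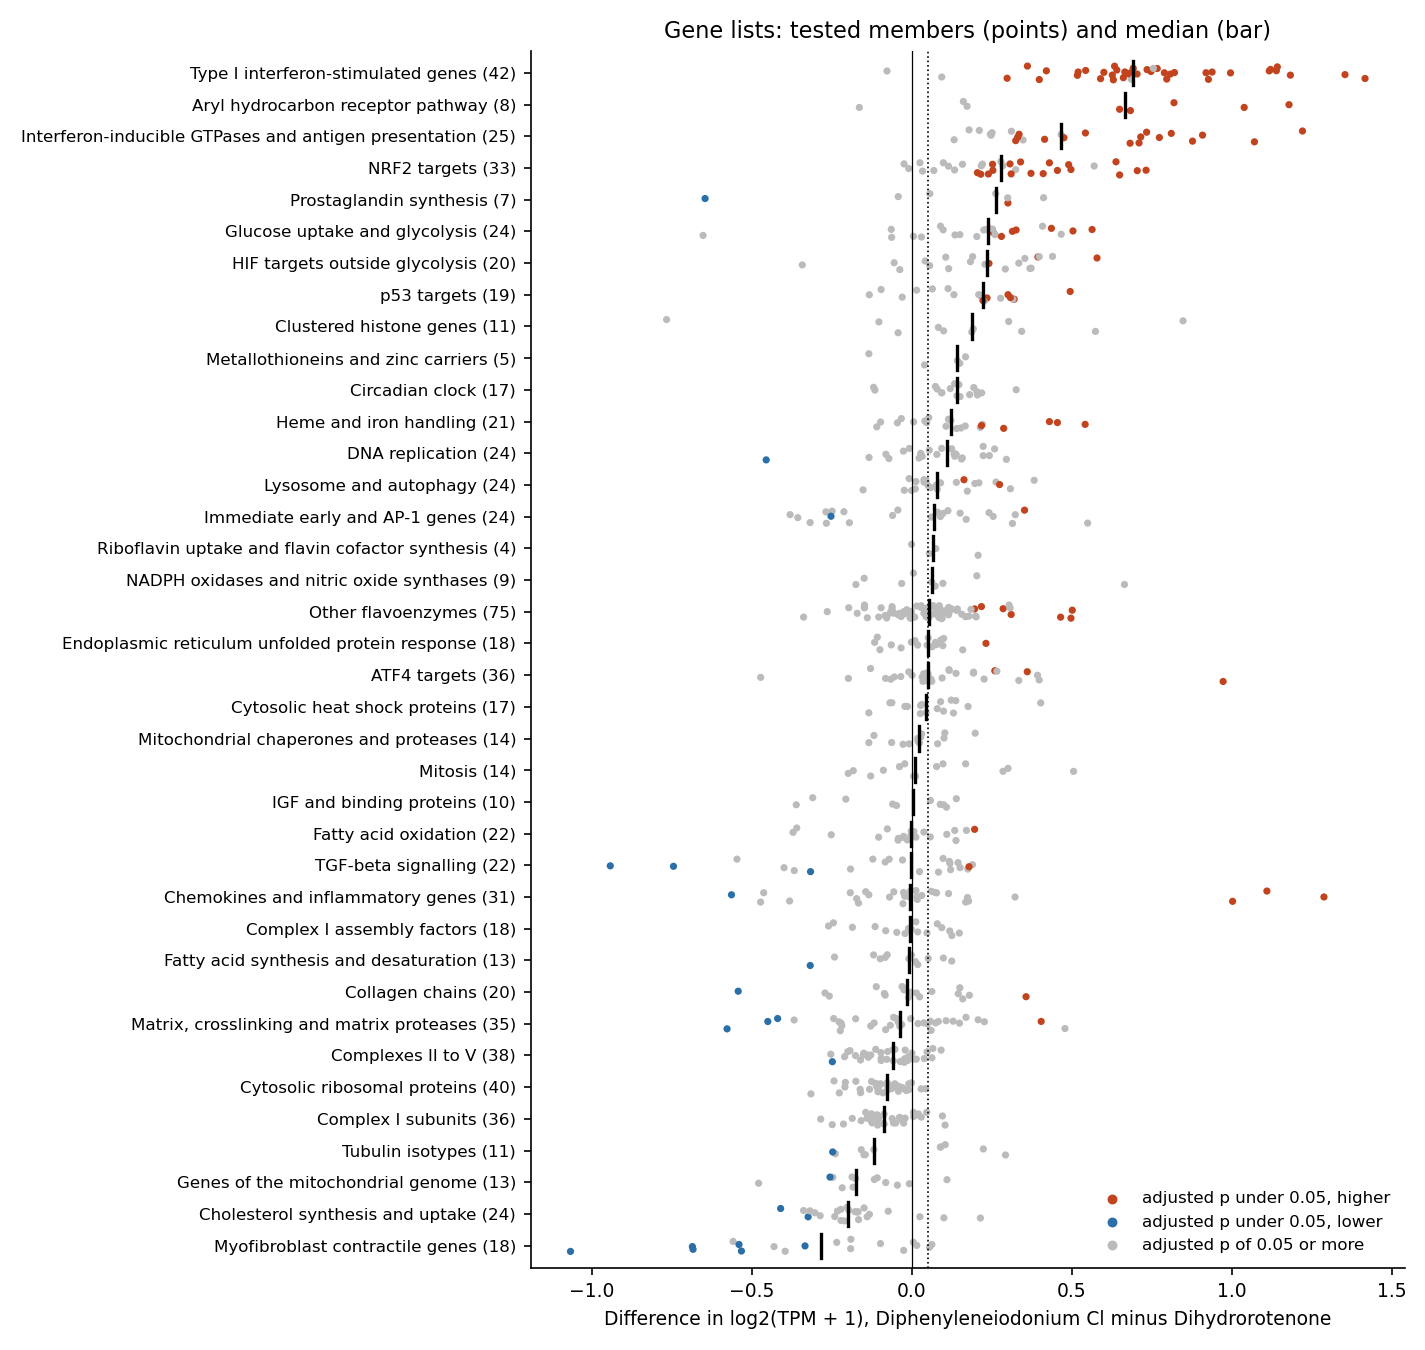
Difference in log2(TPM + 1) between the compounds for the tested members of each of the 38 gene lists, with the list median as a bar, the number tested in brackets and the median of all genes (0.05) as the dotted line. The interferon lists and the aryl hydrocarbon receptor list sit farthest to the right at medians of 0.69, 0.47 and 0.67, and the contractile genes farthest to the left at -0.28.

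Among p53 targets, 7 of 19 were higher with a median of 0.22, against 3.5% and 0.05 over all genes tested. Mdm2, the ligase that degrades p53, was at 148, 151 and 148 TPM against 120, 121 and 116 TPM, a difference of 0.32 (adjusted p = 0.0168), and Cdkn1a (p21), which stops the cell cycle, differed by 0.23 (adjusted p = 0.0406). Ccng1, Ei24, Gtse1, Pmaip1 and Polk were the other 5. The count was 2 with median-ratio scaling or without dihydrorotenone replicate 2 or 3 or diphenyleneiodonium replicate 2 or 3, and 4 without dihydrorotenone replicate 1. None of 14 tested mitosis genes was called (1 at an unadjusted p under 0.05). Of 24 replication genes, 1 was lower, against 0.623% of all genes tested. It was Gins2, and 66.2% of its 31-base words are shared.

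ATF4 target genes, which respond to amino acid and mitochondrial stress, gave 3 of 36 higher, none lower and a median of 0.05. The shares over all genes tested were 3.5% higher and 0.623% lower, and their median was also 0.05. Gdf15, a secreted stress hormone, stood out from its list at 13, 14.4 and 13.3 TPM against 6.63, 7.39 and 5.34 TPM, with 3.87 to 5.92 TPM in DMSO. Its difference was 0.97 ± 0.10 (adjusted p = 6.31e-06). Ddit3 (CHOP) was higher by 0.36 and Slc3a2 by 0.26, while Atf4 (-0.01), Asns (-0.20) and Trib3 (0.10) were not called. Of 21 heme and iron genes, 5 were higher: Hmox1, Blvrb (0.43), which reduces biliverdin, Slc25a37 (0.29), which brings iron into mitochondria, Steap3, and Tfrc. Tfrc, the transferrin receptor, was at 6.23, 5.76 and 6.70 TPM with diphenyleneiodonium, 3.30, 4.21 and 4.45 TPM with dihydrorotenone and 5.45 to 8.96 TPM in DMSO. Here diphenyleneiodonium stayed within the solvent range and dihydrorotenone lay below it (difference from DMSO -0.65, adjusted p = 0.000159).

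Contractile genes were the clearest group on the other side. Myofibroblasts carry stress fibres of smooth muscle actin and produce scar tissue, and they are maintained by TGF-beta and by the force-sensitive factors YAP, TAZ and MRTF. Of 18 tested contractile genes, 6 were lower with diphenyleneiodonium, none was higher and the median was -0.28. Cnn1, counted among the 6, entered the test through dihydrorotenone alone. Acta2, the gene of smooth muscle actin at chr19:34241090-34255590, was at 89.2, 85.1 and 103 TPM with diphenyleneiodonium, 203, 181 and 200 TPM with dihydrorotenone and 194 to 323 TPM in DMSO. No diphenyleneiodonium library overlapped the DMSO libraries, whereas dihydrorotenone did. Separation of the compounds was required by the rule for named genes. The direct difference was -1.07 ± 0.16 (adjusted p = 0.000344), diphenyleneiodonium was below DMSO by 1.41 (-1.41), and dihydrorotenone was not called against DMSO (-0.35, adjusted p = 0.095).

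Myl9, a regulatory light chain of myosin, was at 48.7, 49.3 and 50.4 TPM against 86.2, 72.8 and 81.9 TPM, a difference of -0.69 ± 0.12 (adjusted p = 0.00111). Actg2 (-0.68), Lmod1 (-0.53) and Mylk (-0.33) were lower as well. Cnn1 (-0.54, adjusted p = 0.0439) reached the threshold of 1 TPM in the dihydrorotenone libraries alone, so it could enter the test only as a gene that differed. Tagln was at 74.6, 75.7 and 79.0 TPM against 118, 101 and 121 TPM without overlap and missed the threshold (-0.56, adjusted p = 0.117). Genes of general actin structure were not called, and Tpm1 (-0.02, 95% interval -0.12 to 0.07), Cald1 (0.02, -0.12 to 0.15) and Actn1 (0.01, -0.15 to 0.16) had 95% intervals around 0. The count of 6 fell to 3 without dihydrorotenone replicate 1 or 2, to 2 without dihydrorotenone replicate 3 or diphenyleneiodonium replicate 1 or 2, and to 3 with a filter of 5 TPM.

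Ccn2 and Ccn1, matrix proteins that YAP and TAZ switch on through TEAD factors, were lower too. The promoter of Ccn1, at chr3:145649936-145650235 on the minus strand, is shown for the TEAD core GGAATG, in capitals as its reverse complement, which begins at -103.
Ccn1: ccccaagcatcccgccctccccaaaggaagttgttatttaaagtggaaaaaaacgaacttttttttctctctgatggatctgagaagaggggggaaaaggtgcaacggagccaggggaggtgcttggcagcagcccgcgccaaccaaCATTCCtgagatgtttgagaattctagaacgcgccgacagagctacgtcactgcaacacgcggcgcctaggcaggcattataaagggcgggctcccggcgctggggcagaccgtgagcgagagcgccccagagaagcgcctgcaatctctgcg
Of 16 contractile genes with a window, 8 held this core (50%). The share was 16.6% of all genes with a window, 14.1% of the tested genes and 15.9% of the called lower genes.

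Ccn2 was at 41.0, 44.5 and 49.6 TPM with diphenyleneiodonium, 86.6, 84.1 and 91.0 TPM with dihydrorotenone and 103 to 167 TPM in DMSO, a direct difference of -0.94 ± 0.22 (adjusted p = 0.0148). Ccn1 was at 76.1, 130 and 126 TPM against 195, 175 and 174 TPM, a difference of -0.74 ± 0.19 (adjusted p = 0.026). Both genes were named under a rule that required the compounds not to overlap, and both calls were lost without single libraries. Without diphenyleneiodonium replicate 1 the difference was -0.88 (adjusted p = 0.0664) for Ccn2 and -0.50 (adjusted p = 0.192) for Ccn1. The Ccn2 call was also lost without diphenyleneiodonium replicate 2 and dihydrorotenone replicates 1 and 3 (adjusted p = 0.0539, 0.054 and 0.055), and with a pseudocount of 0.1 (adjusted p = 0.0958). The Ccn1 call was also lost without dihydrorotenone replicates 1, 2 and 3 (adjusted p = 0.116, 0.0565 and 0.0584) and in the fit of the 6 libraries alone (adjusted p = 0.0872). Of the 22 TGF-beta genes, Id3 was also lower (-0.32) and Tgif1 was higher (0.18). Over all genes tested, 3.5% were called higher and 0.623% lower.

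Matrix genes gave 3 of 35 lower and 1 higher, with a median of -0.04. Among them, the small proteoglycans Dcn (decorin) and Lum (lumican) were lower by 0.45 and 0.42 (-0.45 and -0.42). Dcn was at 871, 809 and 857 TPM with diphenyleneiodonium, 1145, 1132 and 1187 TPM with dihydrorotenone and 1390 to 1526 TPM in DMSO. Of 20 collagen chains, Col18a1 was higher (0.36) and Col11a1 lower (-0.54), against 3.5% higher and 0.623% lower over all genes tested. The main fibrillar collagen and fibronectin genes were not called, and Col1a1 (-0.01), Col3a1 (-0.09) and Fn1 (0.02) overlapped between compounds.

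The remaining named genes on this side came from several pathways. Tm4sf1, a tetraspanin-like membrane protein, was at 7.51, 6.30 and 5.78 TPM against 11.8, 10.7 and 11.8 TPM, with 19.5 to 29.2 TPM in DMSO, a direct difference of -0.73 (adjusted p = 0.00282). Hpgd, which inactivates prostaglandins, was at 27.3, 24.9 and 21.9 TPM against 39.1, 39.2 and 38.7 TPM (-0.65, adjusted p = 0.00151). Agtr2, an angiotensin receptor, was at 10.7, 9.71 and 7.91 TPM against 16.9, 12.6 and 14.7 TPM (-0.59, adjusted p = 0.00569). In these 3 genes and in Serpina3c (-0.64), both compounds were called below DMSO and diphenyleneiodonium was the lower. Cbln1 (-0.71) and Aspn (-0.69), a small proteoglycan, differed from them in that dihydrorotenone lay close to DMSO, with differences of -0.03 and 0.03. The call of Aspn was lost without diphenyleneiodonium replicate 1 (-0.52, adjusted p = 0.135) or dihydrorotenone replicate 1 (-0.50, adjusted p = 0.165), that of Agtr2 without diphenyleneiodonium replicate 3 (adjusted p = 0.0543) or dihydrorotenone replicate 1 (adjusted p = 0.0558), and that of Cbln1 without any single library other than dihydrorotenone replicate 1 (adjusted p from 0.0701 to 0.103).

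**Figure D5:**
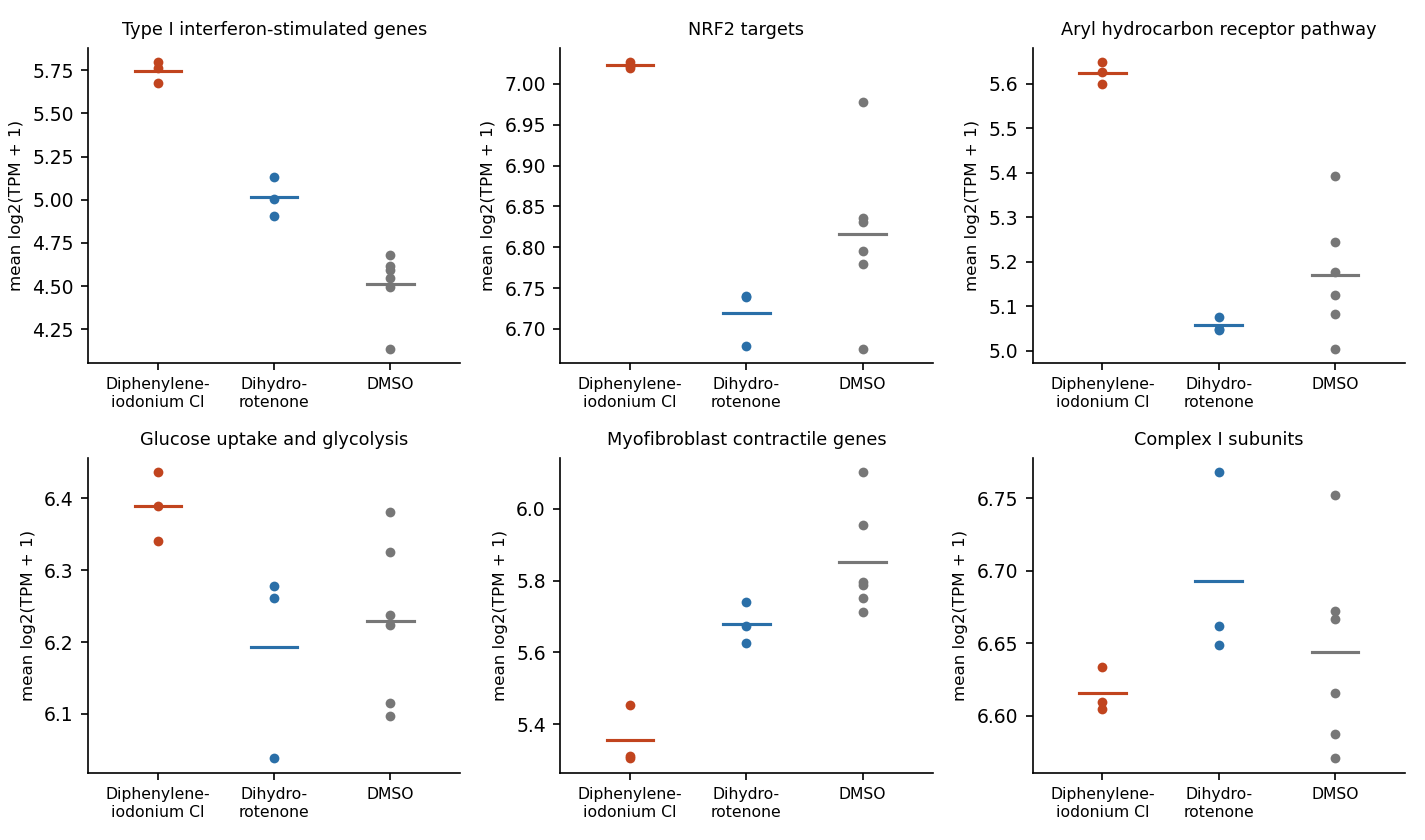
Mean log2(TPM + 1) over the tested members of 6 gene lists in each library, with 1 point per library and a bar at the group mean; the vertical axes differ and do not start at 0. The mean of dihydrorotenone lies between those of diphenyleneiodonium and DMSO for the interferon and the contractile genes, its libraries lie below 5 of the 6 DMSO libraries for the aryl hydrocarbon receptor list, and its replicate 1 is the low point of its group for glycolysis.

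Cholesterol genes, which SREBP2 controls, had 2 of 24 members lower and none higher, with a median of -0.20. Among all genes tested, 0.623% were called lower. Unadjusted limma p was under 0.05 for 12 lower members and 1 higher member. The compounds did not overlap for 14 lower members, against 6.57% of all genes, and for 1 higher member. The list mean of log2(TPM + 1) was 4.19 to 4.22 with diphenyleneiodonium and 4.37 to 4.39 with dihydrorotenone. Idi1 was at 16.6, 16.4 and 17.0 TPM against 23.1, 21.9 and 22.4 TPM (-0.41, adjusted p = 0.00646), and Hmgcs1, an early enzyme of the pathway, was lower as well (-0.32). Against DMSO, 17 members were lower with diphenyleneiodonium and 11 with dihydrorotenone. None of the 17 cytosolic heat shock genes, 17 clock genes, 10 genes of IGF and its binding proteins, 14 mitochondrial chaperone genes and 40 ribosomal protein genes was called by limma (5, 2, 2, 3 and 6 at an unadjusted p under 0.05). The 5 heat shock and 2 clock genes were all higher with diphenyleneiodonium, and the 2 IGF and 6 ribosomal genes all lower. Above 0 lay 15 of the 17 clock genes and 2 of the 40 ribosomal genes, against 65.5% of all genes tested. By library, the list means of the heat shock, clock and ribosomal genes did not overlap between the compounds. Whether these lists depart from all genes was not tested.

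Parp16, on no list and outside the rule for named genes, had the largest difference of any called gene and was singled out after its values were seen. It was at 2.75, 3.41 and 1.73 TPM with diphenyleneiodonium and at 0.0759, 0.000926 and 0.00726 TPM with dihydrorotenone (1.79 ± 0.51, adjusted p = 0.0425). The DMSO libraries ranged from 0 to 3.92 TPM, so solvent alone spanned both compounds, and the gene entered the test through diphenyleneiodonium alone.

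Markers of the labelled cell type were present in all 6 libraries. The 12 fibroblast markers summed to 15059 to 15869 TPM with diphenyleneiodonium, 14872 to 16464 TPM with dihydrorotenone and 17123 to 19608 TPM in DMSO, and all were above 1 TPM, with Dcn and Lum called lower. Of the 9 macrophage and leukocyte markers, 4 were under 1 TPM in all 6 libraries, Ptprc (CD45) among them. Their sum was 120 to 133 TPM against 162 to 165 TPM, and most of that difference was Lyz2 (lysozyme). Lyz2 was called lower at 68.9, 61.4 and 58.9 TPM against 95.9, 99.6 and 101 TPM (-0.64, limma adjusted p = 0.000438). For Lyz2, 32.8% of its 31-base words are shared. Cd68 was at 15.8, 15.3 and 14.5 TPM against 13.9, 14.2 and 13 TPM. Cd14 was at 38.4, 35.5 and 42.0 TPM against 43.4, 39.3 and 41.1 TPM. Cd68 (0.14), Cd14 (-0.10), Adgre1 (-0.07) and Csf1r (-0.09) were expressed and not called between the compounds. Adgre1 and Csf1r were called lower than DMSO with both. The 7 smooth muscle and pericyte markers, 4 of them under 1 TPM, summed to 7.29 to 8.14 TPM and 6.42 to 8.20 TPM beside the lower Acta2. Within that sum Notch3, a pericyte receptor, was called higher (4.83, 5.05 and 4.86 TPM against 3.22, 3.57 and 3.97 TPM, 0.37, adjusted p = 0.0321), Cnn1 was called lower, and Rgs5 was not called (-0.26). The part of other cell types in these results was not tested.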

How the data were processed

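RNA was sequenced from 30 libraries of 1 fibroblast line. Per the submitters' processing notes, reads passed FastQC and were quantified with kallisto 0.43.1 against mm10, and the authors deposited TPM per gene. The transcript release is not given in the sources used here. Counts were not used, so the depth is unknown, and the listed genes sum to 92.7% to 93.7% of 1000000 TPM per library. Here limma 3.58.1 in R 4.3.3 was fitted to log2(TPM + 1) with a mean for each of 9 groups over all 30 libraries, an intensity trend and Benjamini-Hochberg adjustment over the 12672 genes, two-sided, with a threshold of 0.05. Differences are on the log2(TPM + 1) scale, which understates the change of low genes. Named genes were the 12 with the largest difference in each direction among called genes whose higher compound averaged 5 TPM or more and whose compounds did not overlap, without predicted genes or clone names, beside members of 38 gene lists and 10 marker lists. The comparison, lists and motifs were chosen with earlier results of these data known. Shared 31-base words came from the annotated transcripts. Alternatives were other pseudocounts, filters, scalings and models, a replicate block, and leaving out each library. The fit was also run on simulated data with known differences. The simulated noise was independent between genes, so it held no library that deviates as a whole, as dihydrorotenone replicate 1 did. Some genes that met the naming rule or belong to a list are not reported here.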

Additional observations from a re-analysis of the deposited data

Results flagged for a closer look

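In 4 of the 62 DMSO groups of values examined, 1 of the 6 libraries lay far from the other 5 by Dixon's gap test at the 95% level. Chance alone gives this in about 1 in 20 groups. Aldh3a1 reached 52.2 TPM and Cbln1 49.7 TPM in such a library, the mean log2(TPM + 1) of the interferon-stimulated genes was 4.14 in the lowest DMSO library, and that of the IGF genes was 7.03. The direct comparison does not subtract these values.

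Gclm and Gclc, the subunits of the ligase that starts glutathione synthesis, moved opposite ways from solvent with the 2 compounds. The difference between compounds, tested directly with limma, was 0.73 for Gclm (adjusted p = 1.41e-05) and 0.49 for Gclc (adjusted p = 0.000607).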

How the results depend on the processing

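No alternative turned the sign of the 24 named genes or of the 87 other called members of the leading lists. Both sets were chosen among called genes. Of 760 refits of list medians, 72 were classed as moved, and 11 of the 38 medians stayed the same in every refit. The median over all genes tested turned from 0.05 to -0.003 with median-ratio scaling and -0.004 with quantile normalization. The fit of the 6 libraries alone called 368 genes (304 higher, 64 lower), and 298 of the 523 genes of the main fit were among them. With a replicate block on the 6 libraries, 236 genes were called (192 higher, 44 lower), with 9 NRF2 targets, 4 glycolysis genes, 2 p53 targets and 3 contractile genes. The block on all 30 libraries gave 683 genes. The labels give the replicates only a number, and same-numbered libraries did not deviate together (correlations -0.0061, -0.086 and -0.016). Median-ratio scaling gave 259 higher and 136 lower, 10 GTPase and antigen genes, 4 glycolysis genes and 2 p53 targets, and quantile normalization gave 184 lower. A pseudocount of 5 left 6 genes at 2-fold. The p53 count was 4 with the 6 libraries alone, with no filter and without the 20 most abundant genes, and the contractile count was 3 with a mean of at least 5 TPM. Leaving out 1 library at a time gave 239 to 360 genes in all, 204 to 311 higher, 35 to 51 lower, 16 to 24 at 2-fold, 25 to 34 interferon-stimulated genes, 7 to 13 GTPase and antigen genes, 10 to 15 NRF2 targets, 0 to 8 glycolysis genes, 2 to 5 p53 targets, 2 to 5 contractile genes and 5 receptor pathway genes throughout. The cause of these changes was not tested, and the fits without 1 library also had fewer libraries. Of the 24 named genes, 18 kept their call in every refit. Of 87 other called members of the leading lists, 32 did, and 332 of their 1727 refits lost the call in the same direction. The unknown depth limits what can be said of genes near 1 TPM.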

Other observations

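Prostaglandin genes held 1 member on each side among 7 tested. Pla2g4a, the phospholipase that frees arachidonic acid, was higher with diphenyleneiodonium by 0.30, beside the lower Hpgd (-0.65). Of 24 immediate early genes, Fosl1 was higher by 0.35 (54.5% of its 31-base words are shared) and Myc lower (-0.25). Over all genes tested, 3.5% were called higher and 0.623% lower, and whether these lists depart from those shares was not tested. Of 24 lysosome and autophagy genes, 2 were higher and none was lower, with Gpnmb, a lysosomal glycoprotein, higher by 0.27, and of 13 genes of fatty acid synthesis Scd1, the stearoyl-CoA desaturase, was lower (-0.32).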
